A study of Mus musculus with 12 samples.

Results

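Collagen chain genes encode the alpha chains that wind around each other to form collagen molecules. The genes described here are all those in the deposited table whose symbol is written as Col, a number, the letter a and a second number. They are 44 of the 54446 genes in the table, taken by symbol and not by level. The gene family and its classes were chosen with earlier results of these data known. RNA was measured in 12 libraries of the E14 mouse embryonic stem cell line, 3 in each of 4 groups. SOX17+, SOX17+/T+ and T+ cells had been differentiated from E14 cells and sorted by reporters for SOX17, an HMG-box transcription factor of endoderm, and for T (Brachyury), a transcription factor that marks the primitive streak and early mesoderm. The undifferentiated mESC had been kept on gelatin with serum, LIF and irradiated primary embryonic fibroblasts of the mouse, which serve as feeder cells. The labels describe a sort for the 3 reporter populations and none for mESC, so the mESC libraries could hold feeder RNA. The sources used here do not give the protocol or time of differentiation or how the reporters were built. They do not state whether replicates came from separate cultures, so the tests below measure the spread between these libraries, which may be technical. By its title, the study concerns the formation of mouse definitive endoderm.

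Fibrillar collagens such as types I, III and V build the fibres of connective tissue and are made in quantity by fibroblasts. Type IV collagen instead forms the sheet-like network of basement membranes, to which laminins, nidogens and heparan sulfate proteoglycans attach. In the early mouse embryo, basement membranes separate the epiblast from the endoderm around it and are crossed by cells that leave the primitive streak.

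Levels are TPM (transcript abundance per total of 1000000) as deposited by the authors, a unit scaled by transcript length and by library, so that levels of different genes can be set side by side. The read depth behind a value is unknown, so no counting interval can be given. The marker genes of the sort had levels that match the group names. Sox17 had 244, 211 and 235 TPM in SOX17+ libraries, 148, 146 and 123 TPM in SOX17+/T+, 7.96, 9.99 and 12.9 TPM in T+ and 0.798, 0.483 and 0.632 TPM in mESC. T had 2.27, 1.86 and 2.84 TPM in SOX17+ libraries, 40.4, 31.7 and 61.5 TPM in SOX17+/T+, 132, 92.1 and 158 TPM in T+ and 0.650, 0.618 and 0.673 TPM in mESC.

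The type IV chain genes are arranged in pairs that lie head to head, and the sequences around their starts are given here because the chains of 1 pair had near equal levels in all groups while those of another did not. Col4a1 and Col4a2 lie on opposite strands of chromosome 8 (Col4a1 at chr8:11198423-11312826, minus strand; Col4a2 at chr8:11312805-11449287, plus strand), and their annotated spans overlap by 22 bases. Col4a6 (chrX:141165403-141474076, minus strand) and Col4a5 (chrX:141475385-141689234, plus strand) lie on chromosome X with 1308 bases between them. Col4a4 and Col4a3, the remaining pair, lie on chromosome 1 with 71 bases between them. Col4a4 was listed at 0 in all 12 libraries and Col4a3 in 9 of them. All coordinates are GRCm38, counted from 1. The sequences are RefSeq windows on GRCm38.p6 that run from 250 bases before to 50 bases after a transcript start, 5′ to 3′ on the strand of the gene. Capitals mark CCAAT or its reverse complement ATTGG, and GGGCGG or its reverse complement CCGCCC.
Col4a1 (chr8:11312777-11313076, minus strand): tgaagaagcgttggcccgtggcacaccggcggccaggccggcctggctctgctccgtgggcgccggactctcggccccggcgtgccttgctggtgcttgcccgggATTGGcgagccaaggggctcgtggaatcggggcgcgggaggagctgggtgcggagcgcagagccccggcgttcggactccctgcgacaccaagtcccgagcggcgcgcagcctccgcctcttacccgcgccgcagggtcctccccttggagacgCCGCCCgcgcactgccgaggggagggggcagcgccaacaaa
Col4a2 (chr8:11312555-11312854, plus strand): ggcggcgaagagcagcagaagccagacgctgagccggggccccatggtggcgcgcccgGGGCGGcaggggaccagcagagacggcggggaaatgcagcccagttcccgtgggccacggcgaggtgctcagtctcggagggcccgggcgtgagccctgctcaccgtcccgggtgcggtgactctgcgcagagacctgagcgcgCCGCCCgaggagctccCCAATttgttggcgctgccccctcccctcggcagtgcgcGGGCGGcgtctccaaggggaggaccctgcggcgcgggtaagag
Col4a5 (chrX:141475169-141475468, plus strand): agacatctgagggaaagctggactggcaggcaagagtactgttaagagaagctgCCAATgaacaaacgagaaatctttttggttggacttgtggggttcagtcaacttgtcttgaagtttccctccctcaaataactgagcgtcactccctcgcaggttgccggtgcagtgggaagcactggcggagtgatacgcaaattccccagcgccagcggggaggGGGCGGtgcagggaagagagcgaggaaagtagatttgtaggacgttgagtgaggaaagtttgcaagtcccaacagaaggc
Col4a6 (chrX:141474027-141474326, minus strand): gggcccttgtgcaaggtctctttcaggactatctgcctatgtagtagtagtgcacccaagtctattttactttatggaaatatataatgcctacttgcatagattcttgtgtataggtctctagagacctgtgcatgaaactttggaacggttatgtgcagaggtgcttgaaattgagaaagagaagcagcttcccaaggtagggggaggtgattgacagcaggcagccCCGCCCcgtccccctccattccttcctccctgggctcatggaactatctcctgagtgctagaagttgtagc

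The Col4a1 and Col4a2 windows share 78 bases, read from opposite strands, and these shared bases hold 1 GGGCGG. Col4a1 has 1 CCAAT and 1 GGGCGG in its window, and Col4a2 has 1 CCAAT and 3 GGGCGG. Col4a5 has 1 of each, while Col4a6 has 1 GGGCGG and no CCAAT. The GC content was 74.0% and 73.7% in the Col4a1 and Col4a2 windows, and 52.7% and 48.3% in the Col4a5 and Col4a6 windows. RefSeq windows were matched for 35 of the 44 collagen genes, with 38 windows in all. GGGCGG, on either strand, occurred in 23 of these 38 windows and in 35.7% of 32851 windows of all genes, and CCAAT in 13 of 38 and in 37.4%. TATAAA, the TATA box motif, occurred in 5 of 38 and in 13.6%, and in none of the type IV windows printed. These letters are a description of the windows, and no factor binding was measured.

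The make-up of collagen RNA differed between the sorted cells and mESC. In SOX17+ cells the type IV chains made up 57.3% of all collagen TPM, against 44.7% in SOX17+/T+, 31.2% in T+ and 8.80% in mESC (means over n = 3 libraries each). The 5 major fibrillar chains, Col1a1, Col1a2, Col3a1, Col5a1 and Col5a2, made up 6.65% in SOX17+ cells, 10.5% in SOX17+/T+, 16.6% in T+ and 59.0% in mESC. Summed over all 44 genes, collagen reached 676 ± 56.1 TPM in SOX17+, 436 ± 17.2 TPM in SOX17+/T+, 346 ± 19.4 TPM in T+ and 1363 ± 149.6 TPM in mESC (mean ± SD, n = 3 each). Col4a1 was the leading collagen in SOX17+ cells, Col18a1 in SOX17+/T+ and T+ cells, and Col1a1 in mESC. Genes at 20 TPM or more numbered 4 in SOX17+, 4 in SOX17+/T+, 6 in T+ and 13 in mESC.

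**Figure D1:**
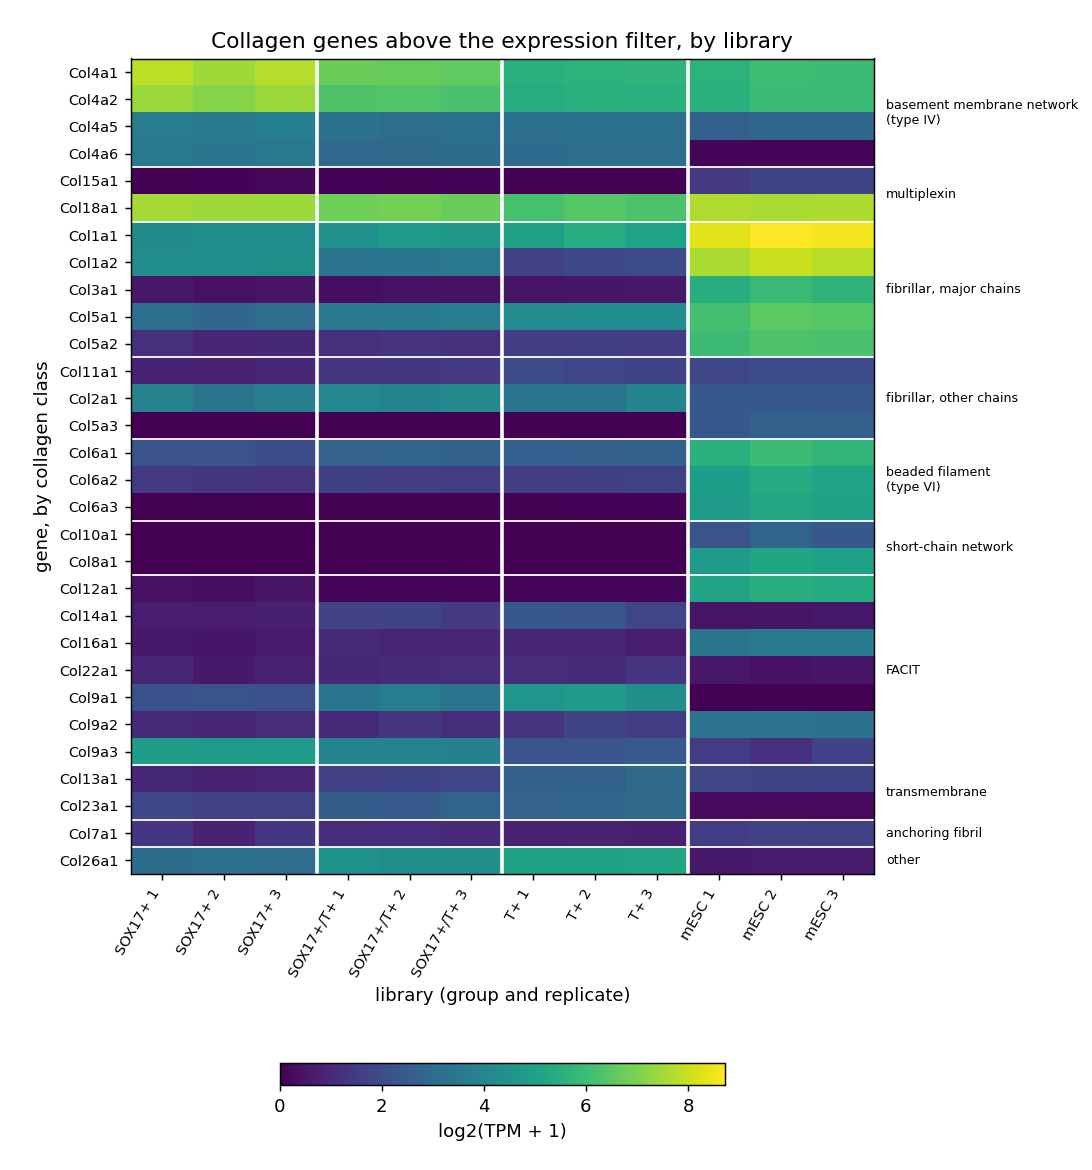
Levels of the 30 collagen genes that passed the filter, as log2(TPM + 1) by colour, with 1 column per library and 1 row per gene, grouped by collagen class. Col4a1 and Col4a2 are brightest in the SOX17+ columns, and the major fibrillar and type VI rows are brightest in the mESC columns.

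**Figure D2:**
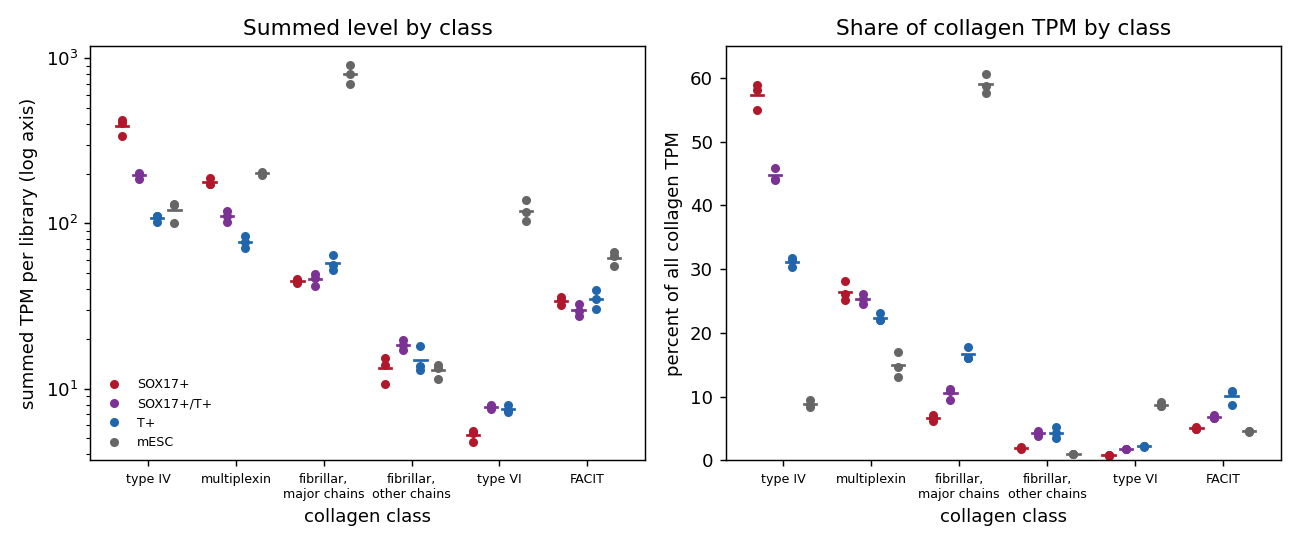
Summed TPM by collagen class on a log axis (left) and as a percent of all collagen TPM (right), with 1 point per library and a bar at the mean of 3 libraries. The type IV sum steps down through SOX17+, SOX17+/T+ and T+, while the 5 major fibrillar chains are at 805 TPM in mESC and between 44.8 and 57.5 TPM in the sorted groups.

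Of the 44 genes, 30 reached 1 TPM in at least 3 of the 12 libraries and were tested with limma among 16097 genes. Of these 30, 8 passed only through the mESC libraries, namely Col3a1, Col5a3, Col6a3, Col8a1, Col10a1, Col12a1, Col15a1 and Col16a1. These 8 were tested only because of their level in mESC, so their levels against mESC are given as a description, with no test. Col4a6, Col9a1, Col14a1, Col22a1, Col23a1 and Col26a1 were under 1 TPM in every mESC library and passed only through sorted libraries. Their levels against mESC are likewise given as a description. The 14 collagens that did not pass the filter had no group mean above 1.07 TPM, the highest being that of Col8a2, a short-chain collagen, in mESC. The rest of the 14, listed to account for all members, were Col4a3, Col4a4, Col6a4, Col6a5, Col6a6, Col11a2, Col17a1, Col19a1, Col20a1, Col24a1, Col25a1, Col27a1 and Col28a1. The highest mean among the 4 groups fell in SOX17+ for 5 tested collagens, in SOX17+/T+ for 1, in T+ for 6 and in mESC for 18.

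Fold changes below are differences of log2(TPM + 1) between group means ± the standard error of the limma fit, and calls rest on p-values adjusted by Benjamini-Hochberg over all tested genes, at under 0.05. This scale understates changes of genes near or below 1 TPM. Against mESC, most genes of these cells were called, so a call of a collagen is nearly the rule. In SOX17+ against mESC, 10 collagens were higher, 19 lower and 1 not called, where 85.4% of all tested genes were called, 35.4% higher and 50% lower. For SOX17+/T+ against mESC the counts were 11 higher, 18 lower and 1 not called, with 85.2% of all tested genes called, 34.9% higher and 50.3% lower. T+ against mESC gave 10 higher, 19 lower and 1 not called, with 84% of all tested genes called, 34.5% higher and 49.5% lower. These comparisons share the mESC libraries. With at least a 2-fold difference on this scale, 8 collagens were higher and 16 lower in SOX17+ than in mESC, where 11% of all tested genes were higher and 20.4% lower. In SOX17+/T+ 7 were higher and 15 lower than in mESC, where 10% and 20.3% of all tested genes were, and in T+ 7 were higher and 16 lower, where 10.4% and 20.2% were. All 8 collagens that passed only through mESC are among the lower ones in each of these counts. The other 22 gave 10 higher and 11 lower in SOX17+, 11 and 10 in SOX17+/T+, and 10 and 11 in T+, with at least a 2-fold difference in 8 and 8, 7 and 7, and 7 and 8. Their median fold change was 0.03 in SOX17+, 0.15 in SOX17+/T+ and -0.18 in T+. The collagens that passed only through sorted libraries remain among these 22. They are among the higher ones in each sorted group, apart from Col14a1 in SOX17+, and are counted without being read as tests. These counts and medians are therefore a description. Shares over all tested genes, here and below, keep every gene, also where members that passed only through mESC are set aside. Over all 30 the median fold change was -1.33, -1.21 and -1.49 in SOX17+, SOX17+/T+ and T+, beside -0.18, -0.19 and -0.17 over all tested genes. After quantile normalization the median over all genes became 0.05, 0.06 and 0.07, and 52.4%, 53.2% and 53.4% of all called genes were higher, against 41.5%, 40.9% and 41.0% as deposited. The number of collagens called higher and lower was then 11 and 17 in SOX17+, 12 and 18 in SOX17+/T+, and 10 and 17 in T+.

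Type IV collagen rose in SOX17+ cells. All 4 tested chains were higher in SOX17+ than in T+ and than in SOX17+/T+. Against mESC, Col4a1, Col4a2 and Col4a5 were called higher in SOX17+, while Col4a6 passed the filter only through sorted libraries and is described below. The sum of the type IV chains was 420.3, 337 and 407 TPM in SOX17+ libraries, 202, 199 and 184 TPM in SOX17+/T+, 102, 110.4 and 111 TPM in T+ and 100.3, 130.5 and 129.8 TPM in mESC. SOX17+ thus stood 3.60 times above T+, 1.99 times above SOX17+/T+ and 3.23 times above mESC in mean summed TPM. Bulk libraries cannot tell fewer cells of a type from less RNA per cell, here or in the values below.

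Col4a1 and Col4a2 encode the chains of the type IV molecule found in nearly all basement membranes, and the gene pair supplied most of the type IV level. Col4a1 had 229, 178 and 217 TPM in SOX17+ libraries, 107, 103 and 95.3 TPM in SOX17+/T+, 45.4, 48.8 and 49.5 TPM in T+ and 49.1, 63.2 and 62.1 TPM in mESC. Every SOX17+ library lay above every SOX17+/T+ library and these above every T+ library, whereas T+ and mESC overlapped. The fold change was 2.09 ± 0.10 in SOX17+ over T+ (limma adjusted p = 1.0e-08), 1.07 ± 0.10 in SOX17+/T+ over T+ (limma adjusted p = 1.4e-05) and 1.01 ± 0.10 in SOX17+ over SOX17+/T+ (limma adjusted p = 1.6e-05). SOX17+ was also higher than mESC, at 1.82 ± 0.10 (limma adjusted p = 6.4e-09).

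Col4a2 showed 169, 139 and 168 TPM in SOX17+ libraries, 79.4, 80.7 and 73.5 TPM in SOX17+/T+, 41.1, 45.4 and 45.2 TPM in T+ and 45.4, 60.8 and 61.1 TPM in mESC. It was in the same order of groups, with 1.82 ± 0.11 in SOX17+ over T+ (limma adjusted p = 4.7e-08) and 0.81 ± 0.11 in SOX17+/T+ over T+ (limma adjusted p = 1.7e-04). The ratio of Col4a1 to Col4a2 was 1.35, 1.28 and 1.29 in SOX17+ libraries, 1.35, 1.28 and 1.30 in SOX17+/T+, 1.10, 1.07 and 1.10 in T+ and 1.08, 1.04 and 1.01 in mESC. The ratios of the SOX17+ and SOX17+/T+ libraries thus lay above those of T+ and mESC. Between T+ and mESC the calls of both genes did not hold in all settings. Col4a1 was at -0.27 ± 0.10 (limma adjusted p = 0.033) and Col4a2 at -0.33 ± 0.11 (limma adjusted p = 0.015). Over the alternative settings the adjusted p ran between 0.0022 and 0.7 for Col4a1 and between 0.00019 and 0.79 for Col4a2. Without mESC replicate 2 it was 0.12 and 0.061, without mESC replicate 3 0.11 and 0.062, and without T+ replicate 1 0.1 and 0.056. Without T+ replicate 2 it was 0.056 for Col4a1, and with the replicate number as a block it was 0.061 for Col4a1.

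Col4a5 and Col4a6 encode chains of a rarer type IV network found in some epithelial basement membranes. Col4a5 averaged 11.6 ± 0.987 TPM in SOX17+, 8.15 ± 0.271 TPM in SOX17+/T+, 8.25 ± 0.0319 TPM in T+ and 6.18 ± 0.505 TPM in mESC (SD, n = 3 each). Col4a6 averaged 10.2 ± 0.299 TPM in SOX17+, 7.11 ± 0.300 TPM in SOX17+/T+, 7.66 ± 0.391 TPM in T+ and 0.104 ± 0.0149 TPM in mESC. The pair was therefore nearly balanced in sorted cells and one-sided in mESC. The ratio of Col4a5 to Col4a6 was 1.14, 1.08 and 1.21 in SOX17+ libraries, 1.23, 1.13 and 1.09 in SOX17+/T+, 1.14, 1.05 and 1.05 in T+ and 64.4, 56.4 and 58.9 in mESC. Col4a6 passed the filter only through sorted libraries, so no test against mESC is given for it. Its fold change in SOX17+ over mESC was 3.34, a value that becomes 5.66 with a pseudocount of 0.1. For Col4a5 the same comparison gave 0.81 ± 0.07 (limma adjusted p = 1.3e-07). Among sorted cells both genes were higher in SOX17+ than in T+, at 0.45 ± 0.07 (limma adjusted p = 1.4e-04) for Col4a5 and 0.37 ± 0.06 (limma adjusted p = 2.9e-04) for Col4a6. SOX17+/T+ did not differ from T+ by the test, with -0.01 (limma adjusted p = 0.91) for Col4a5 and -0.10 (limma adjusted p = 0.3) for Col4a6. The SOX17+/T+ mean of both lay below both single-positive means.

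The multiplexins, collagens that carry sugar chains and sit in basement membranes, split into a high and a low member. Col18a1, from which endostatin is cut, had 189, 173 and 174 TPM in SOX17+ libraries, 111, 118 and 102 TPM in SOX17+/T+, 71.4, 84.0 and 76.8 TPM in T+ and 203, 194 and 199 TPM in mESC. Like Col4a1 it stepped down through the sorted groups with no overlap, but every mESC library lay above every SOX17+ library. It was higher in SOX17+ than in T+, at 1.20 ± 0.06 (limma adjusted p = 3.3e-09) and lower in T+ than in mESC, at -1.35 ± 0.06 (limma adjusted p = 1.4e-10). In SOX17+ against mESC it was at -0.16 ± 0.06 (limma adjusted p = 0.029). Over the alternative settings the adjusted p of that last call ran between 0.0047 and 0.95, and quantile normalization turned its direction, at 0.14. The adjusted p was 0.086 without mESC replicate 1, 0.063 without mESC replicate 3, 0.093 without SOX17+ replicate 2 and 0.087 without SOX17+ replicate 3. Col18a1 (chr10:77052178-77166548, minus strand) overlaps Slc19a1 on the opposite strand over 8825 bases, and Slc19a1 averaged 22.8 TPM in SOX17+, 22.1 TPM in SOX17+/T+, 25.0 TPM in T+ and 15.8 TPM in mESC. The sources used here do not give the strand setting of the counting, so reads of such pairs may not be fully separated. Col15a1 averaged 0.0877 ± 0.0509 TPM in SOX17+, 0.0518 ± 0.0135 TPM in SOX17+/T+ and 2.17 ± 0.406 TPM in mESC, and in T+ it was at 0, 0.0338 and 0.0430 TPM.

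The major fibrillar chains were far lower in all sorted cells than in mESC. Col1a1, Col1a2, Col5a1 and Col5a2 were called lower in SOX17+, in SOX17+/T+ and in T+ than in mESC, and Col3a1 is one of the genes that passed the filter only through mESC. The sum of the 5 chains was 44.5, 43.8 and 46.1 TPM in SOX17+ libraries, 41.8, 49.3 and 46.8 TPM in SOX17+/T+, 52.3, 64.3 and 56.0 TPM in T+ and 695, 912 and 807 TPM in mESC. Mean sums were 18.0 times lower in SOX17+, 17.5 times lower in SOX17+/T+ and 14.0 times lower in T+ than in mESC. The 6 other fibrillar chains were not lower as a sum. It averaged 13.3 ± 2.35 TPM in SOX17+, 18.3 ± 1.24 TPM in SOX17+/T+, 14.9 ± 2.80 TPM in T+ and 12.9 ± 1.30 TPM in mESC. Markers of feeder fibroblasts moved with the major fibrillar class. The summed level of the 14 markers was 52.2, 54.0 and 56.3 TPM in SOX17+ libraries, 53.9, 61.6 and 64.3 TPM in SOX17+/T+, 77.1, 87.5 and 84.4 TPM in T+ and 4021, 4892 and 4689 TPM in mESC. Of the 14, 5 passed the filter only through mESC. The other 9 were all called lower in each sorted group than in mESC, with medians of -5.78 in SOX17+, -5.87 in SOX17+/T+ and -5.32 in T+, where 50%, 50.3% and 49.5% of all tested genes were called lower. Acta2, smooth muscle actin, averaged 7.14 ± 0.498 TPM in SOX17+, 11.7 ± 1.19 TPM in SOX17+/T+, 24.1 ± 0.667 TPM in T+ and 1006 ± 127 TPM in mESC. Between SOX17+ and T+ cells, 3 of the 14 markers were higher in SOX17+, 7 lower and 4 not called, where 25.4% of all tested genes were higher and 29% lower. S100a4, a fibroblast marker, was listed at 0 in all SOX17+ and SOX17+/T+ libraries, and Lum, a proteoglycan of collagen fibrils, in all SOX17+ and T+ libraries. Other markers remained in sorted cells, and only 5 of the 14 in SOX17+, 6 in SOX17+/T+ and 5 in T+ had means under 1 TPM. Pdgfrb averaged 5.57 TPM in SOX17+, 7.67 TPM in SOX17+/T+, 12.3 TPM in T+ and 15.6 TPM in mESC. Twist2 averaged 4.22, 8.86, 12.4 and 30.3 TPM in the same order of groups. Among the mESC libraries, replicate 2 was highest and replicate 1 lowest in both the fibroblast sum and the fibrillar sum. The same held for the type IV, type VI and FACIT (fibril-associated) sums, but not for the multiplexin and transmembrane sums. The part of feeder cells in the level of any collagen was not tested.

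Type I collagen, the main protein of connective tissue, is built from chains of Col1a1 and Col1a2. Col1a1 had 17.0, 18.2 and 17.8 TPM in SOX17+ libraries, 20.3, 26.6 and 23.3 TPM in SOX17+/T+, 30.4, 41.0 and 32.5 TPM in T+ and 322, 422 and 377 TPM in mESC. Col1a2 had 17.8, 17.9 and 19.1 TPM in SOX17+ libraries, 9.46, 9.79 and 10.2 TPM in SOX17+/T+, 2.24, 2.79 and 3.12 TPM in T+ and 197, 262 and 223 TPM in mESC. The genes therefore ran in opposite directions across the sorted groups, with Col1a1 highest in T+ and Col1a2 highest in SOX17+, and no library of SOX17+ overlapped one of T+. In SOX17+ over T+, Col1a1 was at -0.92 ± 0.13 (limma adjusted p = 6.8e-05) and Col1a2 at 2.38 ± 0.10 (limma adjusted p = 4.3e-10). In SOX17+/T+ over T+, Col1a1 was at -0.54 ± 0.13 (limma adjusted p = 0.0073) and Col1a2 at 1.55 ± 0.10 (limma adjusted p = 1.5e-07).

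The ratio of Col1a1 to Col1a2 was 0.954, 1.02 and 0.935 in SOX17+ libraries, 2.14, 2.72 and 2.29 in SOX17+/T+, 13.6, 14.7 and 10.4 in T+ and 1.63, 1.61 and 1.69 in mESC. Each T+ library thus held far more Col1a1 than Col1a2, whereas SOX17+ libraries held them at near equal levels. Between SOX17+ and SOX17+/T+, Col1a1 was at -0.38 ± 0.13 (limma adjusted p = 0.035), a call lost without 5 of the 6 libraries of these groups in turn and held only without SOX17+/T+ replicate 1. Over all alternative settings its adjusted p ran between 0.00052 and 0.13, the highest without SOX17+/T+ replicate 2. Against mESC the fold changes were -4.32 ± 0.13 in SOX17+ (limma adjusted p = 1.3e-11) and -3.40 ± 0.13 in T+ (limma adjusted p = 1.2e-10) for Col1a1. For Col1a2 they were -3.56 ± 0.10 in SOX17+ (limma adjusted p = 1.0e-12) and -5.94 ± 0.10 in T+ (limma adjusted p = 8.8e-15).

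**Figure D3:**
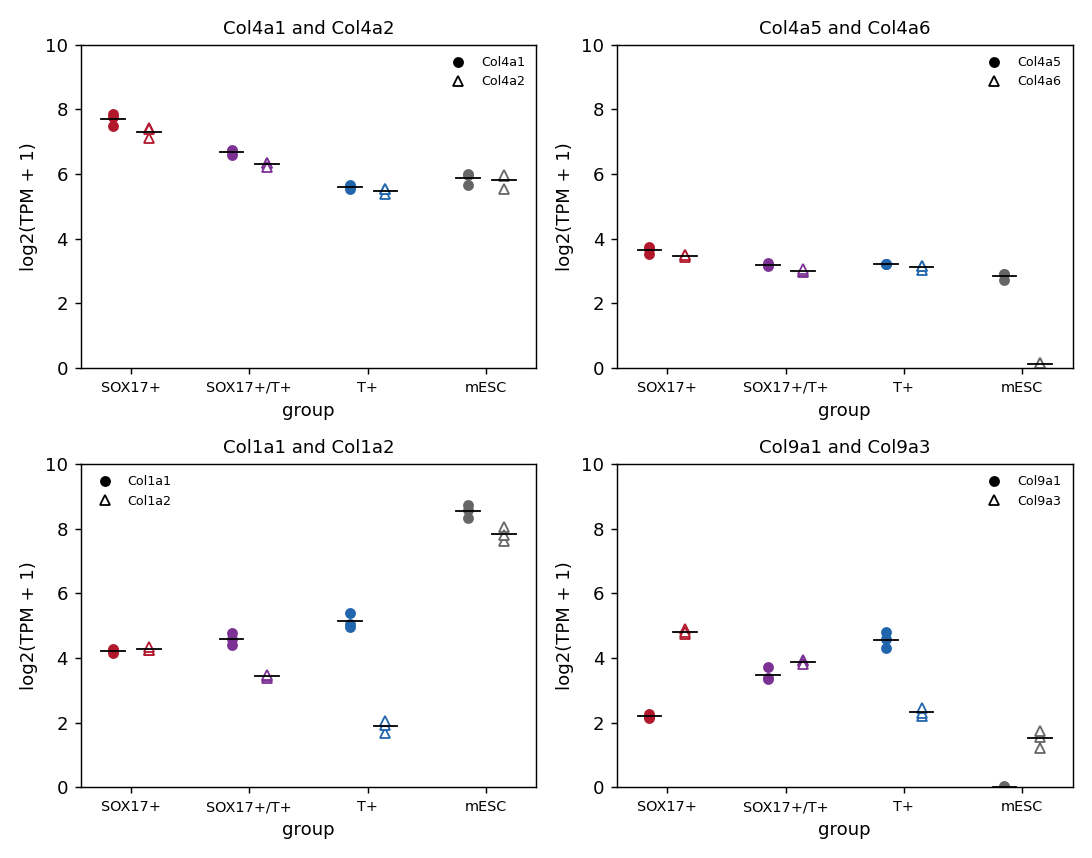
Levels of 4 pairs of partner chains as log2(TPM + 1), with 1 point per library and a bar at the mean of 3 libraries. Col4a1 and Col4a2 run in parallel, Col4a6 drops near 0 in mESC while Col4a5 does not, and Col1a1 with Col1a2 and Col9a1 with Col9a3 cross between SOX17+ and T+.

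Type III and type V collagens join type I fibrils, and type V starts their assembly. Col3a1 had 0.464, 0.302 and 0.385 TPM in SOX17+ libraries, 0.253, 0.315 and 0.308 TPM in SOX17+/T+, 0.423, 0.451 and 0.516 TPM in T+ and 44.7, 59.5 and 49.9 TPM in mESC. Every sorted library was under 1 TPM and every mESC library far above it, and no call was made between sorted groups. Col5a1 had 8.04, 6.38 and 7.79 TPM in SOX17+ libraries, 10.5, 11.1 and 11.8 TPM in SOX17+/T+, 17.3, 18.0 and 17.9 TPM in T+ and 70.0, 91.1 and 85.3 TPM in mESC. Its order among sorted cells was the reverse of that of Col4a1, without overlap, at -1.16 ± 0.10 in SOX17+ over T+ (limma adjusted p = 2.8e-07) and -0.63 ± 0.10 in SOX17+/T+ over T+ (limma adjusted p = 2.6e-04).

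Col5a2 had 1.23, 0.899 and 0.979 TPM in SOX17+ libraries, 1.26, 1.52 and 1.32 TPM in SOX17+/T+, 1.98, 2.05 and 1.98 TPM in T+ and 61.8, 77.8 and 72.7 TPM in mESC. It was lower in SOX17+ than in T+, at -0.56 ± 0.09 (limma adjusted p = 1.8e-04), and lower in SOX17+ than in mESC, at -5.14 ± 0.09 (limma adjusted p = 1.5e-14). Col5a1 stood at 7.19, 8.19 and 8.85 times the level of Col5a2 in SOX17+, SOX17+/T+ and T+, and at 1.16 times in mESC (mean ratios, n = 3 each). Col5a3, the remaining type V chain, was listed at 0 in every SOX17+ and SOX17+/T+ library and at 0.0398, 0 and 0 TPM in T+, with 4.14, 5.58 and 5.41 TPM in mESC. Col3a1 and Col5a2 are neighbours on chromosome 1, with 24614 bases between them.

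Col2a1, the type II chain of cartilage and notochord, had 13.5, 9.41 and 12.2 TPM in SOX17+ libraries, 15.8, 14.4 and 16.8 TPM in SOX17+/T+, 9.34, 9.36 and 14.7 TPM in T+ and 4.19, 4.30 and 4.26 TPM in mESC. Every SOX17+/T+ library lay above every SOX17+ library, and T+ libraries overlapped with both. It was higher than in mESC in each sorted group, at 1.26 ± 0.15 in SOX17+ (limma adjusted p = 6.5e-06), 1.67 ± 0.15 in SOX17+/T+ (limma adjusted p = 4.4e-07) and 1.18 ± 0.15 in T+ (limma adjusted p = 1.2e-05). SOX17+/T+ against T+ was at 0.48 ± 0.15 (limma adjusted p = 0.034), and over the alternative settings the adjusted p of this call ran between 0.00093 and 0.13, at 0.13 without T+ replicate 1, 0.12 without T+ replicate 2, 0.085 without SOX17+/T+ replicate 1 and 0.094 without SOX17+/T+ replicate 3. SOX17+ against SOX17+/T+ was not called at -0.41 (limma adjusted p = 0.058), and was called with the replicate block (limma adjusted p = 0.03) and without T+ replicate 3 (limma adjusted p = 0.0085). Over the alternative settings that p ran between 0.0085 and 0.21. Col11a1, a partner of type II in fibrils, averaged 0.812 ± 0.0862 TPM in SOX17+, 1.69 ± 0.0953 TPM in SOX17+/T+, 2.72 ± 0.346 TPM in T+ and 2.97 ± 0.356 TPM in mESC. Its level was lower in SOX17+ than in T+, at -1.03 ± 0.09 (limma adjusted p = 5.3e-07).

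Type IX collagen, a FACIT (a collagen that attaches to the surface of fibrils), is assembled from 3 chains that did not move together. Col9a1 had 3.54, 3.80 and 3.42 TPM in SOX17+ libraries, 9.50, 12.1 and 9.22 TPM in SOX17+/T+, 23.0, 27.0 and 18.9 TPM in T+ and 0, 0.0291 and 0 TPM in mESC. Col9a3 had 28.5, 25.6 and 27.1 TPM in SOX17+ libraries, 14.2, 14.1 and 13.1 TPM in SOX17+/T+, 3.66, 3.93 and 4.46 TPM in T+ and 1.96, 1.34 and 2.38 TPM in mESC. Their orders among the sorted groups were opposite, and in each gene no library of 1 sorted group overlapped another group. In SOX17+ over T+, Col9a1 was at -2.37 ± 0.12 (limma adjusted p = 2.6e-09) and Col9a3 at 2.48 ± 0.11 (limma adjusted p = 9.1e-10). SOX17+/T+ over T+ gave -1.08 ± 0.12 (limma adjusted p = 1.8e-05) for Col9a1 and 1.56 ± 0.11 (limma adjusted p = 3.9e-07) for Col9a3.

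The ratio of Col9a1 to Col9a3 was 0.124, 0.149 and 0.127 in SOX17+ libraries, 0.669, 0.858 and 0.703 in SOX17+/T+ and 6.30, 6.88 and 4.23 in T+. In mESC, Col9a1 was listed at 0 in 2 of 3 libraries, and Col9a2 was the leading type IX chain. Col9a2 averaged 1.05 ± 0.120 TPM in SOX17+, 1.25 ± 0.224 TPM in SOX17+/T+, 1.99 ± 0.481 TPM in T+ and 8.85 ± 0.299 TPM in mESC. It was lower in SOX17+ than in mESC, at -2.26 ± 0.11 (limma adjusted p = 3.5e-10). SOX17+/T+ was below T+, at -0.40 ± 0.11 (limma adjusted p = 0.018), a call for which the alternative settings gave adjusted p between 0.0032 and 0.078, with 0.078 without T+ replicate 2, 0.05 without T+ replicate 3 and 0.073 without SOX17+/T+ replicate 1. Col9a3 (chr2:180597790-180622189, plus strand) overlaps Tcfl5 on the opposite strand over 234 bases, and Tcfl5 averaged 7.14 TPM in SOX17+, 5.78 TPM in SOX17+/T+, 4.40 TPM in T+ and 49.1 TPM in mESC. Markers of node, notochord and cartilage had summed levels of 24.6, 22.1 and 28.8 TPM in SOX17+ libraries, 54.5, 51.5 and 83.4 TPM in SOX17+/T+, 67.8, 63.4 and 116 TPM in T+ and 9.31, 11.1 and 11.4 TPM in mESC. Of these 8 markers, 6 were lower and 1 higher in SOX17+ than in T+, where 29% of all tested genes were lower and 25.4% higher, with Noto listed at 0 in all mESC libraries. Replicate 3 of T+ was the highest T+ library in this sum and in Col2a1, and the lowest in Col9a1. The part of such cells in the type II and IX levels was not tested.

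The remaining FACITs followed several patterns. Col12a1, which binds type I fibrils, had 0.322, 0.240 and 0.368 TPM in SOX17+ libraries, 0.0851, 0.0747 and 0.0782 TPM in SOX17+/T+, 0.105, 0.0966 and 0.0857 TPM in T+ and 33.4, 44.7 and 40.5 TPM in mESC. Sorted cells were near 0 throughout, so that the gene passed the filter only through mESC. The call of SOX17+ over T+, at 0.26 ± 0.09 (limma adjusted p = 0.034), concerns levels under 1 TPM and was lost without any 1 of 5 of the 6 libraries, with adjusted p between 0.00013 and 0.1 over the settings. Col16a1 averaged 0.495 ± 0.0832 TPM in SOX17+, 0.942 ± 0.0793 TPM in SOX17+/T+, 0.771 ± 0.152 TPM in T+ and 10.6 ± 0.889 TPM in mESC. Its call in SOX17+ against T+, at -0.24 ± 0.09 (limma adjusted p = 0.033), was lost without SOX17+ replicate 1 or 2 and without T+ replicate 1 or 2, with adjusted p between 0.012 and 0.11 over the settings. Col14a1, a FACIT of type I fibrils, was instead highest in T+. It averaged 0.629 ± 0.0522 TPM in SOX17+, 2.10 ± 0.348 TPM in SOX17+/T+, 3.52 ± 0.839 TPM in T+ and 0.401 ± 0.0536 TPM in mESC, and was lower in SOX17+ than in T+, at -1.46 ± 0.12 (limma adjusted p = 4.5e-07), or -2.29 with a pseudocount of 0.1. Col22a1, known from tissue junctions, averaged 0.738 ± 0.204 TPM in SOX17+, 1.08 ± 0.0892 TPM in SOX17+/T+, 1.25 ± 0.233 TPM in T+ and 0.412 ± 0.0735 TPM in mESC. This gene passed the filter only through sorted libraries, so no test against mESC is given for it.

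Type VI collagen forms beaded filaments beside fibrils and is abundant around fibroblasts. Col6a1 had 3.71, 3.68 and 3.22 TPM in SOX17+ libraries, 5.69, 5.91 and 5.56 TPM in SOX17+/T+, 5.11, 5.23 and 5.54 TPM in T+ and 45.5, 61.8 and 51.2 TPM in mESC. Col6a2 had 1.79, 1.69 and 1.55 TPM in SOX17+ libraries, 2.11, 2.01 and 1.96 TPM in SOX17+/T+, 2.02, 2.08 and 2.27 TPM in T+ and 28.9, 39.9 and 33.0 TPM in mESC. Col6a3, the largest chain of the molecule, had 0.0154, 0 and 0.00547 TPM in SOX17+ libraries, 0.0312, 0.0306 and 0.0312 TPM in SOX17+/T+, 0.0387, 0.0528 and 0.0563 TPM in T+ and 27.6, 35.8 and 30.9 TPM in mESC. Col6a1 and Col6a2 were called lower in each sorted group than in mESC. Col6a3, which passed the filter only through mESC, was near 0 in sorted cells where Col6a1 and Col6a2 were not. In T+ against mESC the fold changes were -3.09 ± 0.09 (limma adjusted p = 2.3e-12) for Col6a1 and -3.47 ± 0.10 (limma adjusted p = 1.3e-12) for Col6a2. The ratio of Col6a3 to Col6a1 was at most 0.0102 in any sorted library and between 0.579 and 0.606 in mESC libraries. Between sorted groups Col6a1 alone was called, lower in SOX17+ than in T+, at -0.47 ± 0.09 (limma adjusted p = 7.7e-04) and than in SOX17+/T+, at -0.57 ± 0.09 (limma adjusted p = 3.5e-04).

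The short-chain collagens Col8a1 and Col10a1 both passed the filter only through mESC, and their levels are given as a description. Col8a1, known from vessel walls and the cornea, had 0.0105, 0.0295 and 0 TPM in SOX17+ libraries, 0.0378, 0.0169 and 0.0360 TPM in SOX17+/T+, 0.0149, 0.0224 and 0.0126 TPM in T+ and 27.1, 33.6 and 30.7 TPM in mESC. Col10a1, known from hypertrophic cartilage, was listed at 0 in all 9 sorted libraries and had 3.70, 5.95 and 4.34 TPM in mESC. It lies inside Nt5dc1, which is on the opposite strand and averaged between 7.94 and 10.9 TPM in the 4 groups. Col7a1, the anchoring fibril chain of the skin, averaged 1.36 ± 0.442 TPM in SOX17+, 1.14 ± 0.0464 TPM in SOX17+/T+, 0.760 ± 0.0634 TPM in T+ and 2.29 ± 0.198 TPM in mESC.

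Col26a1 and the tested transmembrane collagens had their highest means in T+ cells. Col26a1 (chr5:136741759-136883209, minus strand) had 7.45, 8.02 and 7.72 TPM in SOX17+ libraries, 20.6, 19.5 and 19.4 TPM in SOX17+/T+, 30.7, 31.2 and 33.1 TPM in T+ and 0.527, 0.565 and 0.555 TPM in mESC. No library of 1 group overlapped another group, and all sorted groups were above mESC. It passed the filter only through sorted libraries, so no test against mESC is given for it. Its fold change over mESC was 4.40 in T+, 3.75 in SOX17+/T+ and 2.49 in SOX17+. SOX17+ was below T+, at -1.90 ± 0.06 (limma adjusted p = 2.3e-11). Col13a1, which spans the cell membrane at sites of adhesion, averaged 0.899 ± 0.0810 TPM in SOX17+, 2.40 ± 0.241 TPM in SOX17+/T+, 6.10 ± 0.898 TPM in T+ and 2.50 ± 0.138 TPM in mESC. It was lower in SOX17+ than in T+, at -1.90 ± 0.09 (limma adjusted p = 2.2e-09), and higher in T+ than in mESC, at 1.01 ± 0.09 (limma adjusted p = 2.5e-07). Col23a1, another membrane-spanning collagen, averaged 2.41 ± 0.273 TPM in SOX17+, 5.23 ± 0.679 TPM in SOX17+/T+, 6.33 ± 0.754 TPM in T+ and 0.180 ± 0.0126 TPM in mESC. Its level was lower in SOX17+ than in T+, at -1.10 ± 0.10 (limma adjusted p = 7.1e-07), while all sorted groups were above mESC.

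Between the sorted groups the collagens moved in both directions. In SOX17+ against T+, 9 were higher, 13 lower and 8 not called, where 54.5% of all tested genes were called, 25.4% higher and 29% lower. With at least a 2-fold difference on this scale, 5 were higher (Col9a3, Col1a2, Col4a1, Col4a2 and Col18a1) and 7 lower (Col9a1, Col26a1, Col13a1, Col14a1, Col5a1, Col23a1 and Col11a1) of 30, where 4.95% of all tested genes were higher and 3.7% lower. The collagen median was -0.07, beside -0.03 over all tested genes. SOX17+/T+ against T+ gave 6 higher, 9 lower and 15 not called, with 28.4% of all tested genes called, 12.6% higher and 15.8% lower. SOX17+ against SOX17+/T+ gave 8 higher, 10 lower and 12 not called, with 36.6% of all tested genes called, 19.8% higher and 16.8% lower. With at least a 2-fold difference, 3 were higher and 2 lower in SOX17+/T+ than in T+ (1.77% and 0.733% of all tested genes), and 2 were higher and 2 lower in SOX17+ than in SOX17+/T+ (1.62% and 1.1%). Of the 22 collagens called in SOX17+ against T+, the SOX17+/T+ mean lay between those of the single-positive groups for 17, or 77.3%, beside 86.3% of the 8767 genes called in that comparison. The 5 others were Col6a1, Col4a5, Col4a6, Col12a1 and Col16a1.

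**Figure D4:**
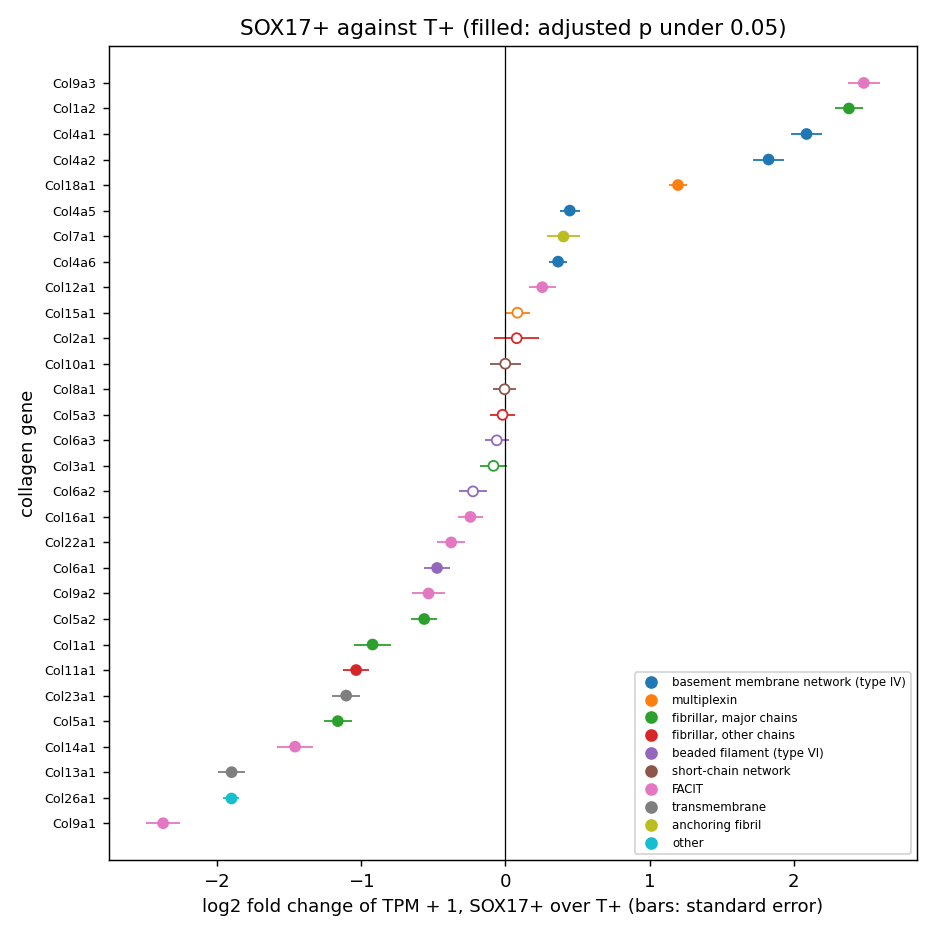
Fold change of each tested collagen in SOX17+ over T+ on the log2(TPM + 1) scale, with bars for the standard error of the limma fit, colours for the class and filled points for an adjusted p under 0.05. Type IV chains lie right of 0, and the chains of types I and IX are found on both sides.

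Genes that fold and hydroxylate collagen chains inside the cell were split against mESC, and more were higher than lower in SOX17+ than in T+. Of 22 listed, 21 were tested, and in SOX17+ against T+ 11 were higher, 5 lower and 5 not called (median 0.15), where 25.4% of all tested genes were higher and 29% lower. P4hb, the partner subunit of prolyl 4-hydroxylase, averaged 786 ± 35.0 TPM in SOX17+, 641 ± 49.8 TPM in SOX17+/T+, 543 ± 24.5 TPM in T+ and 391 ± 10.1 TPM in mESC. P4ha1, a catalytic subunit of the same enzyme, had 175, 169 and 143 TPM in SOX17+ libraries, 152, 144 and 108 TPM in SOX17+/T+, 95.3, 84.0 and 75.6 TPM in T+ and 38.4, 43.0 and 41.5 TPM in mESC. It was higher in SOX17+ than in T+, at 0.93 ± 0.13 (limma adjusted p = 1.0e-04) and than in mESC, at 1.96 ± 0.13 (limma adjusted p = 5.1e-08). P3h2, a prolyl 3-hydroxylase that acts on type IV collagen, averaged 21.6 ± 2.28 TPM in SOX17+, 14.2 ± 0.860 TPM in SOX17+/T+, 14.5 ± 0.746 TPM in T+ and 0.864 ± 0.195 TPM in mESC. Without the sorted libraries it would not have passed the filter, so no test against mESC is given for it. Among the lysyl hydroxylases, Plod3 was higher in SOX17+ than in T+, at 0.72 ± 0.04 (limma adjusted p = 1.6e-08) and Plod1 lower, at -0.73 ± 0.05 (limma adjusted p = 7.5e-08). Without 1 gene that passed the filter only through mESC, the list gave 9 higher and 9 lower of 20 in SOX17+ than in mESC, 8 and 9 in SOX17+/T+, and 8 and 9 in T+. P3h2 is still among the higher ones in each group, so these counts are a description. The shares over all tested genes were 35.4% higher and 50% lower in SOX17+, 34.9% and 50.3% in SOX17+/T+, and 34.5% and 49.5% in T+. These shares still include genes that passed only through mESC, so they are not over a like set.

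Enzymes that trim and cross-link secreted collagen also split in direction. Pxdn, peroxidasin, which cross-links type IV collagen, had 154, 127 and 146 TPM in SOX17+ libraries, 91.9, 83.6 and 96.5 TPM in SOX17+/T+, 71.2, 71.9 and 76.4 TPM in T+ and 17.7, 19.7 and 18.0 TPM in mESC. It was higher in SOX17+ than in T+, at 0.95 ± 0.07 (limma adjusted p = 1.3e-07) and than in mESC, at 2.88 ± 0.07 (limma adjusted p = 3.3e-13). Loxl2, a lysyl oxidase that also acts on type IV collagen, averaged 97.6 ± 9.79 TPM in SOX17+, 58.5 ± 9.30 TPM in SOX17+/T+, 40.5 ± 6.22 TPM in T+ and 64.2 ± 6.38 TPM in mESC, at 1.26 ± 0.14 in SOX17+ over T+ (limma adjusted p = 1.7e-05). Lox, the lysyl oxidase of fibrillar collagen and elastin, averaged 0.130 ± 0.0558 TPM in SOX17+, 0.141 ± 0.0503 TPM in SOX17+/T+, 0.155 ± 0.0526 TPM in T+ and 247 ± 20.8 TPM in mESC. The gene passed the filter only through mESC, so no test is given for it. Pcolce, an enhancer of procollagen trimming, averaged 2.07 ± 0.0213 TPM in SOX17+, 2.45 ± 0.590 TPM in SOX17+/T+, 3.67 ± 0.431 TPM in T+ and 172 ± 18.3 TPM in mESC. Loxl1 and Loxl3, further lysyl oxidases, were at 3.67 ± 0.176 TPM and 1.27 ± 0.148 TPM in T+, against 62.6 ± 8.04 TPM and 43.2 ± 4.08 TPM in mESC. Of the 13 tested genes of this list, 4 passed only through mESC. Among the other 9, 4 were higher and 5 lower in SOX17+ than in mESC, 2 and 5 in SOX17+/T+, and 3 and 6 in T+, beside the shares over all tested genes given above. The higher ones in each group include Adamts3, which was under 1 TPM in every mESC library and passed the filter only through sorted libraries. These counts against mESC are therefore a description. In SOX17+ against T+ 2 of 13 were higher, Loxl2 and Pxdn, and 5 lower, where 25.4% of all tested genes were higher and 29% lower.

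**Figure D5:**
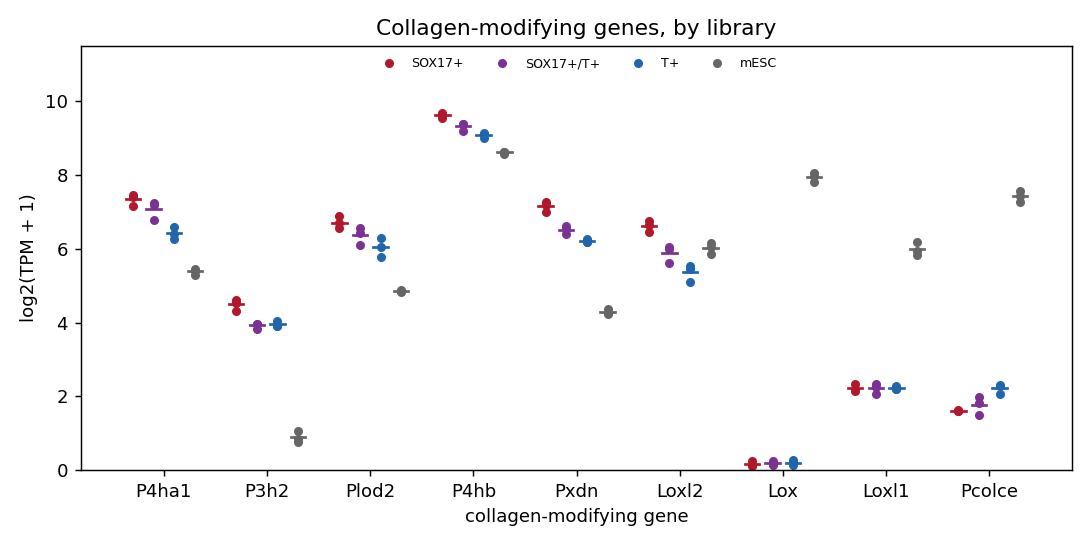
Levels of 9 genes that modify, trim or cross-link collagen as log2(TPM + 1), with 1 point per library and a bar at the mean of 3 libraries. P4ha1, P3h2, Plod2 and Pxdn lie above mESC in all sorted groups, and Lox, Loxl1 and Pcolce lie below it.

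Partners of type IV collagen in basement membranes were nearly all higher in SOX17+ than in T+. Of the 9 listed genes, 8 were higher and 1 lower in SOX17+ than in T+ (median 0.55), and 5 were higher and 1 lower in SOX17+/T+ than in T+. Over all tested genes 25.4% were higher and 29% lower in SOX17+ than in T+, and 12.6% and 15.8% in SOX17+/T+ than in T+. Sparc, which binds type IV collagen, had 394, 389 and 398 TPM in SOX17+ libraries, 191, 211 and 169.7 TPM in SOX17+/T+, 127, 152 and 127 TPM in T+ and 535, 650.5 and 575 TPM in mESC. It was higher in SOX17+ than in T+, at 1.54 ± 0.09 (limma adjusted p = 9.0e-08) and lower in SOX17+ than in mESC, at -0.57 ± 0.09 (limma adjusted p = 1.4e-04). Agrn, a heparan sulfate proteoglycan, averaged 121 ± 5.90 TPM in SOX17+, 82.7 ± 1.87 TPM in SOX17+/T+, 64.4 ± 4.09 TPM in T+ and 37.2 ± 2.70 TPM in mESC. Nid2, a nidogen that links laminin to type IV collagen, averaged 146 ± 8.27 TPM in SOX17+, 99.4 ± 6.89 TPM in SOX17+/T+, 80.8 ± 2.75 TPM in T+ and 159.6 ± 0.763 TPM in mESC. Nid1, the other nidogen, averaged 19.9 ± 0.446 TPM in SOX17+, 16.4 ± 1.69 TPM in SOX17+/T+, 14.9 ± 0.520 TPM in T+ and 132 ± 4.82 TPM in mESC. Lama5, a laminin chain, was higher in SOX17+ than in T+, at 0.79 ± 0.07 (limma adjusted p = 5.8e-07). Against mESC the list was split, with 3 higher and 4 lower in SOX17+, 3 and 6 in SOX17+/T+, and 4 and 5 in T+, beside 35.4% higher and 50% lower, 34.9% and 50.3%, and 34.5% and 49.5% of all tested genes.

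Markers of parietal and primitive endoderm, tissues with thick basement membranes, had summed levels of 681, 650.4 and 668 TPM in SOX17+ libraries, 389.5, 401 and 359 TPM in SOX17+/T+, 346, 362 and 337 TPM in T+ and 694, 829 and 746 TPM in mESC. Of these 9 markers, 7 were higher and 2 lower in SOX17+ than in T+, where 25.4% of all tested genes were higher and 29% lower, and the list shares Sparc, Lamb1 and Lama1 with the basement membrane partners. Sparc alone averaged 394 TPM in SOX17+ and 587 TPM in mESC, most of the sum in each. The 2 lower markers were Pdgfra, at -2.05 ± 0.10 (limma adjusted p = 2.0e-09), and Lama1, at -0.47 ± 0.10 (limma adjusted p = 0.002). Endothelial markers, since vessels also carry type IV collagen, summed to 81.7, 81.9 and 67.3 TPM in SOX17+ libraries, 43.5, 42.4 and 40.8 TPM in SOX17+/T+, 30.5, 33.2 and 34.0 TPM in T+ and 38.8, 39.3 and 38.5 TPM in mESC. Of the 7 tested, 6 were higher and 1 lower in SOX17+ than in T+, beside the same 25.4% and 29% of all tested genes. Kdr, the lower one, averaged 18.6 ± 2.26 TPM in SOX17+, 22.2 ± 1.31 TPM in SOX17+/T+, 27.9 ± 1.42 TPM in T+ and 0.740 ± 0.155 TPM in mESC. It made up most of the T+ sum. Pecam1 made up most of the mESC sum, at 30.3 ± 0.423 TPM there and 10.2 ± 0.776 TPM in SOX17+. Cdh5, the endothelial cadherin, averaged 15.5 ± 1.77 TPM in SOX17+, 4.99 ± 0.589 TPM in SOX17+/T+, 0.643 ± 0.137 TPM in T+ and 0.280 ± 0.0574 TPM in mESC, and Emcn was listed at 0 in all T+ libraries. The part of either cell type in the type IV levels was not tested.

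Receptors of collagen were tested for 6 of 10 listed genes. Ddr2, a receptor kinase for fibrillar collagen, had between 0.0174 and 0.0237 TPM in SOX17+ libraries, 0.0121, 0.00904 and 0 TPM in SOX17+/T+, 0, 0.0223 and 0.0432 TPM in T+ and 17.8, 18.3 and 18.3 TPM in mESC. Ddr1, its relative that also binds type IV collagen, averaged 27.0 ± 1.13 TPM in SOX17+, 27.8 ± 0.416 TPM in SOX17+/T+, 33.4 ± 0.690 TPM in T+ and 25.0 ± 0.422 TPM in mESC. Itga11, the integrin chain that binds type I collagen on fibroblasts, was at 0.316 ± 0.0363 TPM in T+ against 13.7 ± 2.44 TPM in mESC. Mrc2, an endocytic receptor for collagen, differed between the sorted groups. It had 7.74, 6.36 and 5.74 TPM in SOX17+ libraries, 17.1, 16.2 and 16.3 TPM in SOX17+/T+, 31.4, 29.0 and 30.8 TPM in T+ and 23.3, 28.0 and 25.6 TPM in mESC, and was lower in SOX17+ than in T+, at -2.05 ± 0.09 (limma adjusted p = 5.9e-10). In SOX17+ against T+ 1 receptor gene was higher, 3 lower and 2 not called, where 25.4% of all tested genes were higher and 29% lower. Against mESC, 3 of the 6, Ddr2 and Itga11 among them, passed the filter only through mESC. Of the other 3, 1 was higher and 2 lower in SOX17+, 1 and 2 in SOX17+/T+, and 2 and 1 in T+, where 85.4%, 85.2% and 84% of all tested genes were called.

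Of the 10 tested genes of collagen breakdown and its inhibitors, 3 passed the filter only through mESC. Of the other 7, 2 were higher and 5 lower in each sorted group than in mESC, where 35.4%, 34.9% and 34.5% of all tested genes were higher and 50%, 50.3% and 49.5% lower in SOX17+, SOX17+/T+ and T+. Timp1, an inhibitor of matrix metalloproteases, averaged 5.70 ± 0.479 TPM in SOX17+, 8.02 ± 0.404 TPM in SOX17+/T+, 12.5 ± 0.203 TPM in T+ and 414 ± 19.4 TPM in mESC. Timp2 and Timp3, related inhibitors, were lower in SOX17+ than in mESC, at -4.16 ± 0.08 (limma adjusted p = 4.6e-14) and -3.78 ± 0.10 (limma adjusted p = 5.8e-13). Mmp2, a gelatinase that degrades type IV and denatured collagen, went the other way. It averaged 60.8 ± 3.79 TPM in SOX17+, 83.3 ± 2.28 TPM in SOX17+/T+, 121 ± 6.33 TPM in T+ and 33.0 ± 3.92 TPM in mESC, and was higher in T+ than in mESC, at 1.85 ± 0.07 (limma adjusted p = 4.3e-11). Its level was lower in SOX17+ than in T+, at -0.99 ± 0.07 (limma adjusted p = 1.4e-07). Of the 10 genes 0 were higher and 4 lower in SOX17+ than in T+, where 25.4% and 29% of all tested genes were.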

How the data were processed

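Poly(A) RNA of E14 mouse cells was made into stranded libraries and sequenced with 100 bp paired-end reads, per the labels' protocols. Cutadapt, STAR and StringTie and the builds mm10 and GRCm38 are named in the submitters' processing notes, without versions. The sources used here give no strand setting, annotation release or depth per library. Values are TPM as the authors deposited them, and since TPM keeps no depth, no count test was run. In their table of 54480 rows, 282 empty cells were set to 0, and rows of 11 genes listed more than once were summed, which gave 54446 genes.

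Genes at 1 TPM or more in at least 3 of 12 libraries (16097 genes) were tested as log2(TPM + 1) with limma 3.58.1 in R 4.3.3, in 1 fit with a mean per group, a trended and robust variance, and Benjamini-Hochberg adjustment. The fit was tested on simulated data. The collagens, their classes and the partner and marker lists were chosen with earlier results of these data known. All 12 values are given for collagens with a group mean of at least 20 TPM. From each partner or marker list, the called genes with the largest changes (up to 4 per comparison) and the 2 most abundant were open to naming. S100a4, Lum, Emcn, Noto and Adamts3 were chosen after their values were seen.

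Alternatives were a pseudocount of 0.1, no filter, median-of-ratios scaling, quantile normalization, only the 2 groups compared, the replicate number as a block, and leaving out each library. Same-numbered T+ and SOX17+/T+ libraries deviated together from their group means (r = 0.204, 0.149 and 0.242 across genes), which pairs these groups by the rule used. That pairing comes from the data and not from the labels. The p-values given with fold changes of SOX17+/T+ against T+ come from the main fit, which does not use it. Only the run with the replicate number as a block does. The other group pairs did not meet the rule.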

Additional observations from a re-analysis of the deposited data

How the results depend on the processing

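All counts of called collagens stayed within 1.5 times their main value in every alternative run. The run without the filter kept all genes above 0 in any library, so that of the collagens only Col4a4 was left out. In it 38 collagens were called in T+ against mESC, 38 in SOX17+/T+ against mESC and 34 in SOX17+ against mESC. Of the 33055 genes then tested, 17675, 17797 and 17966 were called in these comparisons. Leaving out 1 library gave 27 to 29 calls in T+ against mESC, 29 in SOX17+/T+ against mESC, 28 to 30 in SOX17+ against mESC, 20 to 23 in SOX17+ against T+, 13 to 16 in SOX17+/T+ against T+ and 16 to 20 in SOX17+ against SOX17+/T+. Over all 16097 tested genes the calls in the same order were 13150 to 13601, 13330 to 13767 and 13374 to 13776 against mESC. Between sorted groups they were 8030 to 8854, 3653 to 4739 and 5155 to 5818. Of 2160 such values for single genes, 2111 kept their side of the threshold, 38 lost and 11 gained a call. Among values called in the main or the alternative run, 0 changed direction. Changes of direction in values called in neither run were not counted, here or in the next sentence. Among values called in either run, quantile normalization turned Col13a1 in SOX17+/T+ against mESC to 0.27, Col18a1 in SOX17+ against mESC to 0.14 and Col4a1 in T+ against mESC to 0.046. The cause was not tested. Median-of-ratios scaling moved the mean sum of the major fibrillar chains in SOX17+ to 46.1 TPM, from 44.8 TPM as deposited. A pseudocount of 0.1 moved 49 of 142 called fold changes by over 1.5 times. With the replicate block, SOX17+/T+ against T+ kept a count of 15, Col4a1 lost its call in T+ against mESC (limma adjusted p = 0.061), and Col2a1 and Col22a1 gained one in SOX17+ against SOX17+/T+ (limma adjusted p = 0.03 and 0.028). Depth is unknown, so no counting interval could be given for levels near 0.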
